A study of Mus musculus with 12 samples.

Results

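A group of 10 genes that report p53 activity and restrain the cell cycle were followed through primary colonic myofibroblast cultures: the p53 target genes Cdkn1a, Mdm2, Ccng1, Trp53inp1, Bax, Sesn1, Zmat3 and Phlda3, and the INK4 inhibitor genes Cdkn2a and Cdkn2b. The members were chosen by gene symbol, and 10 of the 10 symbols were found among the 24411 rows of the deposited table of expected counts (estimated reads per gene, which need not be whole numbers). The study compared 6 libraries from TNFR1-/- cells with 6 from control TNFR1-/+ cells, which are heterozygous and so carry 1 disrupted Tnfrsf1a allele themselves. TNFR1 is the receptor through which tumor necrosis factor drives NF-kB and cell death signals, and Tnfrsf1a is its gene. Cells of both genotypes came from the distal colon of 16-week-old C57BL/6 mice, were untreated, were expanded to passage 6 to 8, and were harvested 5 days after they had been placed in Matrigel. The labels do not say which libraries came from separate mice or cultures. The genotypes were compared here for what these genes read out of p53 activity and culture senescence.

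p53 is a transcription factor that accumulates when DNA is damaged or growth signals are abnormal, and it switches on genes that halt division, repair damage or start apoptosis. Mdm2 is one of its targets and encodes the ubiquitin ligase that degrades p53, so the pair forms a feedback loop. Cdkn1a encodes p21, which blocks cyclin-dependent kinases (CDKs). Cdkn2a encodes p16INK4a, an inhibitor of CDK4 and CDK6, and, from a separate first exon, p19ARF, which inhibits MDM2. Cdkn2b encodes the related inhibitor p15INK4b. Cultured mouse fibroblasts are known to accumulate the products of these loci as they approach senescence, a lasting exit from the cell cycle.

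p53 binds a pair of half-sites, each matched here by the p53 half-site consensus. RefSeq start-site windows on GRCm38.p6, each with 250 bases before and 50 after a start, were found for 8 of the 10 members, in 11 windows. The consensus reads the same on both strands. It was met exactly in 8.36% of 32817 windows of this length from all genes, and in 5 of the members' windows. A full site of 2 adjoining half-sites with at most 1 mismatch was found in 29 of the 32817 windows (0.0884%), among them 1 of Cdkn1a and that of Ccng1. The 250 bases before the start are printed for those 2 genes and for Mdm2 and Bax, because these windows hold a match and show which members carry a p53 motif close to a start. Capitals mark exact half-sites and the full sites, and a match is a description of the letters only.
Cdkn1a, first start, chr17:29090729-29090978, plus strand: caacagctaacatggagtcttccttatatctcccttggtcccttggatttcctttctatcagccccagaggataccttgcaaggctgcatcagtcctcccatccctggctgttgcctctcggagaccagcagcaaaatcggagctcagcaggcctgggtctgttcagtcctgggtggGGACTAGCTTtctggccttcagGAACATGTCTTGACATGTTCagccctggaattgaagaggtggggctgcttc
Ccng1, chr11:40755287-40755536, minus strand: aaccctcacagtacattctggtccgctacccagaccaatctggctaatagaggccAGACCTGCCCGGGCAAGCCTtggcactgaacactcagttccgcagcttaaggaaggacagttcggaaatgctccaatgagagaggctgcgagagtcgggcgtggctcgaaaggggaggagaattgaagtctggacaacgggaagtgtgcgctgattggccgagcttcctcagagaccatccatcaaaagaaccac
Mdm2, chr10:117710759-117711008, minus strand: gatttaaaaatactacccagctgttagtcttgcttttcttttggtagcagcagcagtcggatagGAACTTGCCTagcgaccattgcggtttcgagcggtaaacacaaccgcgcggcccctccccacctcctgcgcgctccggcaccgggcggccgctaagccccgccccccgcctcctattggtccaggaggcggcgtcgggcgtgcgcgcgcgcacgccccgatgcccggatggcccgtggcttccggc
Bax, chr7:45466899-45467148, minus strand: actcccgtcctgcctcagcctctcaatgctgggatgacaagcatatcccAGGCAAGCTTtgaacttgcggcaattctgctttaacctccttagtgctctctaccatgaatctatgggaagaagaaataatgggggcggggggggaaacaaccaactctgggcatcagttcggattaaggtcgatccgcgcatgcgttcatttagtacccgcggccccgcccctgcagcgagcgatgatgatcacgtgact
The full site of Cdkn1a is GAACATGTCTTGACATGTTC and begins 51 bases before the start, and that of Ccng1 is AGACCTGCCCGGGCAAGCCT and begins 195 bases before it. Mdm2 and Bax have the single half-sites GAACTTGCCT and AGGCAAGCTT. The second start of Sesn1 has AAGCTTGTTT, while the windows of Phlda3, Cdkn2a and Cdkn2b have none. Cdkn2a has 2 start windows, and its single count per library adds up the transcripts from both.

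Total counts per library were 6543013 to 9937008 for the knockout and 11890729 to 16458689 for the control group, so depth differs with genotype. Tnfrsf1a was lower in the knockout, at 40.6 to 46.1 CPM (read counts divided by TMM-scaled library size, on a common scale) against 54.9 to 81.3 CPM in controls, with the lowest control value in control 6. Knockout 5 and 6 stood apart from knockout 1 to 4, and control 6 from control 1 to 5. Across genes, Spearman correlations were 0.989 to 0.998 for pairs of libraries inside 1 of these 4 sets (17 pairs). They were 0.926 to 0.954 for pairs of the same genotype from different sets (13 pairs). Control 6 was closer to knockout 1 to 4 (0.968 to 0.976) than to control 1 to 5 (0.952 to 0.954), although its Tnfrsf1a level was above that of each knockout library. Nothing shows the libraries of a set to be separate cultures. The p-values over 12 libraries therefore reflect the spread among these libraries alone, part of which may be technical. The chi-square per degree of freedom of a pair, over genes with at least 20 counts, is about 1 under counting noise alone. It was 1.38 to 9.83 inside sets and 105 to 179 between sets of 1 genotype. The fit without knockout 5, 6 and control 6 compares 1 set with 1 set, so its p-values reflect the spread inside sets alone. The pre-ribosomal RNA gene Rn45s took 7.01% and 8.25% of the counts in knockout 5 and 6, 1.63% to 2.097% in knockout 1 to 4, and 0.351% to 1.19% in controls. The 7 myofibroblast markers were abundant, with sums of 13078 to 31907 CPM in knockout and 21455 to 31698 CPM in control libraries. Of the 7 markers 3 were called higher and 0 lower. These markers did not go 1 way: the intermediate filament gene Vim was at 3626 to 4043 CPM in knockout and 1888 to 3095 CPM in control libraries, whereas the collagen gene Col1a2 was at 1358 to 6513 CPM in knockout and 7781 to 8715 CPM in control libraries. Col1a1 was at 1993 to 11420.3 CPM in knockout and 8073 to 13266 CPM in control libraries, and Pdgfrb at 168 to 494 against 452 to 646 CPM. The 6 epithelial markers summed to 4.60 to 6.33 CPM in knockout and 0.658 to 7.70 CPM in control libraries, nearly all of it Krt20, with Cdx2 at 0 and Epcam, Cdh1 and Vil1 at no more than 1 count. The 6 macrophage and leukocyte markers were low and lower in the knockout, at 34.0 to 47.3 against 67.7 to 117.5 CPM in sum, and 4 of the 6 passed the test. Endothelial markers (4 genes) summed to 5.28 to 9.31 against 6.36 to 10.5 CPM, and glial and neuronal markers (4 genes) to 2.48 to 3.30 against 4.42 to 5.56 CPM. What part these cells have in the results on the members was not tested.

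Between the genotypes the members did not move as a group. Mdm2, Ccng1 and Phlda3 were higher in the knockout, Bax was lower, and 6 members (Cdkn1a, Cdkn2a, Cdkn2b, Sesn1, Trp53inp1 and Zmat3) did not pass the test (quasi-likelihood test of edgeR over 12146 genes, with a Benjamini-Hochberg threshold of 0.05). All 10 had passed the filter on low counts, with at least 40 counts in each library. Of all tested genes 43.0% were called (21.4% higher, 21.6% lower), so 4 called of 10 is close to the share over the whole table. Mdm2 alone had 6 knockout libraries on one side of the 6 controls, where 23.0% of all tested genes did. The median log2 difference, knockout minus control, was 0.12 over the members and 0.02 over all tested genes, and the median absolute difference was 0.22 over the members and 0.35 over all tested genes. In bulk RNA a lower level in every cell and fewer cells with the transcript cannot be told apart. With the counts summed over the 4 sets, giving 2 sums per genotype, 0 of 13132 genes and 0 of the members were called (0%). At an unadjusted p under 0.05 that fit of edgeR had 1047 genes and 0 members, and limma-voom on the same sums called 0 genes as well, with 1096 genes and 0 members at that p.

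**Figure D1:**
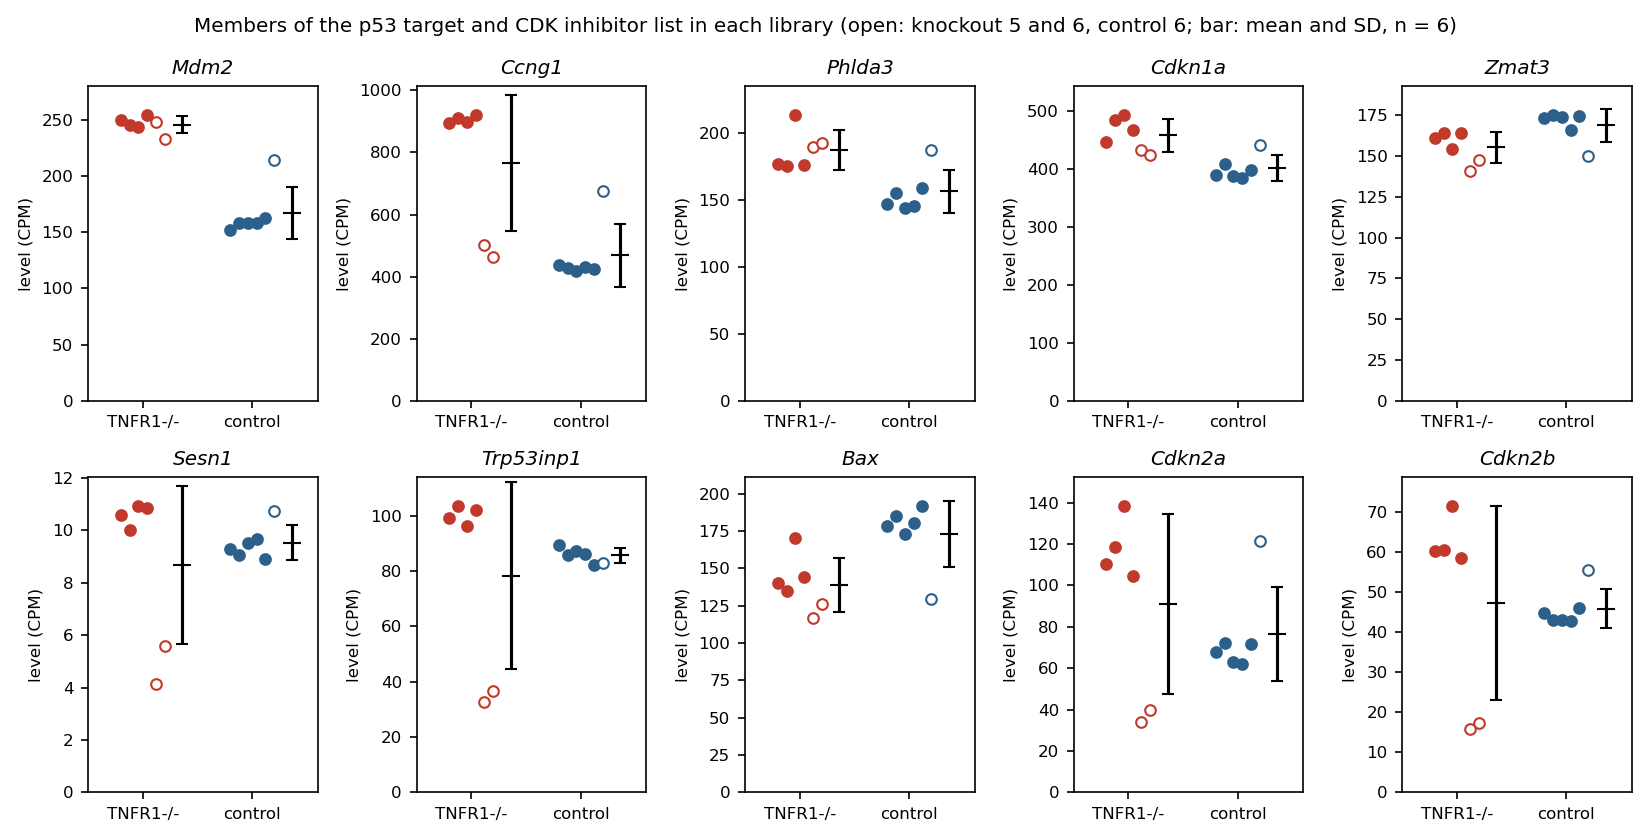
Level of each member in CPM in 6 knockout (TNFR1-/-) and 6 control libraries, with the mean and SD (n = 6) beside the points and open symbols for knockout 5 and 6 and control 6. Mdm2 is at 233 CPM or more in each knockout library and at 214 CPM or less in each control, while the levels of Cdkn2a, Cdkn2b, Sesn1 and Trp53inp1 in knockout 5 and 6 lie below all other libraries.

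Mdm2, the p53-induced ubiquitin ligase that limits p53, was at 249, 245, 243, 254, 248 and 233 CPM in knockout 1 to 6 and at 151, 158, 158, 158, 162 and 214 CPM in control 1 to 6. The groups did not overlap, and control 6 was between the other controls and the knockouts. The mean was 245 ± 7.38 CPM in the knockout against 167 ± 23.2 CPM in the control (SD, n = 6 each), a log2 difference of 0.55 (SE 0.09; edgeR adjusted p = 0.000461). The call was kept without any single library, and without knockout 5 and 6 (0.57), without control 6 as well (0.66) or without knockout 1 to 4 (0.52). Over 25 alternatives the difference was 0.36 to 0.66, and only the 2 fits on summed sets lost the call.

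Ccng1, which encodes cyclin G1, a partner of a phosphatase that acts on MDM2, was at 895, 910.5, 897 and 922 CPM in knockout 1 to 4 and at 501 and 464 CPM in knockout 5 and 6. It was at 438, 426, 417, 431 and 425 CPM in control 1 to 5 and at 675 CPM in control 6. Knockout 5 and 6 were thus nearer to control 1 to 5 than to the other knockouts, and control 6 was above both of them. The log2 difference was 0.71 (SE 0.20; edgeR adjusted p = 0.0142; knockout 765 ± 219, control 469 ± 101 CPM, SD, n = 6 each). It was 0.95 without knockout 5 and 6, 1.09 without control 6 as well, and 0.04 without knockout 1 to 4, where the call was lost (edgeR adjusted p = 0.856; 1.98e-13 to 0.927 over all alternatives).

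Phlda3, a p53-induced inhibitor of AKT signalling, was at 177, 175, 214, 176, 189 and 192 CPM in knockout 1 to 6 and at 147, 155, 144, 146, 159 and 187 CPM in control 1 to 6. Control 6 was above 3 of the knockout libraries, and the other 5 controls were below all 6. The means were 187 ± 14.9 CPM in the knockout and 156 ± 16.3 CPM in the control (SD, n = 6 each). This was a log2 difference of 0.26 (SE 0.09), past the threshold with an edgeR adjusted p = 0.0285. The call was lost without knockout 3 (0.0505) and without any one of control 1 to 5 (0.0518 to 0.0695), and kept without any other library. With library totals as the only scaling the adjusted p was 0.0613.

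Bax, the apoptosis effector that permeabilises mitochondria, was the 1 member called lower. It was at 140.2, 135, 170.2, 144, 117 and 126 CPM in knockout 1 to 6 and at 178, 185, 173, 180.3, 192 and 129 CPM in control 1 to 6. Knockout libraries lay below control 1 to 5, whereas control 6 was below 4 of them. The log2 difference was -0.32 (SE 0.11; edgeR adjusted p = 0.0368; knockout 139 ± 18.3, control 173 ± 22.2 CPM, SD, n = 6 each). Leaving out any one of knockout 1, 2, 4, 5 and 6 or control 1 to 5 ended the call (0.0523 to 0.0813), and it was kept without knockout 3 or control 6. Without knockout 5 and 6 the difference was -0.23 (adjusted p = 0.0959).

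Cdkn1a, the p53 target that encodes p21, was at 446, 485, 494, 468, 433 and 425 CPM in knockout 1 to 6 and at 390.0, 409, 388, 385, 399 and 443 CPM in control 1 to 6. Control 6 was above knockout 5 and 6, and each of the other controls was below all 6 knockouts. The means were 459 ± 28.4 CPM in the knockout and 402 ± 21.7 CPM in the control (SD, n = 6 each). The log2 difference of 0.19 (SE 0.08, 95% interval 0.04 to 0.34) did not pass the threshold (edgeR adjusted p = 0.0639). It passed without control 6 (0.22, edgeR adjusted p = 0.0114), without knockout 5 and 6 (0.23, 0.0120), without those 3 libraries (0.27, 1.88e-05) and in DESeq2 (0.20, 0.00236), and failed in 21 of 25 alternatives, with an adjusted p of up to 0.952.

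Zmat3, a p53 target that encodes an RNA-binding protein, had the narrowest range of the members over the 12 libraries on the log2 scale. It was at 161, 164, 154, 164, 141 and 147 CPM in knockout 1 to 6 and at 173, 175, 174, 166, 175 and 149.8 CPM in control 1 to 6. Control 6 was within the range of the knockouts, and the other 5 controls were above it. The log2 difference was -0.12 (SE 0.07, 95% interval -0.26 to 0.02; edgeR adjusted p = 0.190).

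Sesn1, a stress-induced sestrin that restrains mTORC1, and Trp53inp1, a nuclear cofactor of p53, both separated the knockout libraries into a high and a low set. Sesn1 was at 10.6, 10.0, 10.9, 10.9, 4.15 and 5.59 CPM in knockout 1 to 6 and at 9.28, 9.04, 9.50, 9.66, 8.89 and 10.7 CPM in control 1 to 6. Trp53inp1 was at 99.0, 103, 96.3, 102, 32.8 and 36.6 CPM in knockout 1 to 6 and at 89.4, 85.9, 87.1, 86.2, 82.3 and 82.9 CPM in control 1 to 6. In both genes knockout 5 and 6 were below every other library, while the controls stayed close together. Neither passed the test over 12 libraries, with log2 differences of -0.14 (95% interval -0.56 to 0.29) for Sesn1 and -0.13 (-0.66 to 0.40) for Trp53inp1. Without knockout 5 and 6 the difference of Trp53inp1 turned to 0.23 (edgeR adjusted p = 0.00285), and without knockout 1 to 4 it was -1.30 (2.54e-06; 2.54e-06 to 0.957 over all alternatives). For Sesn1 the same 2 fits gave 0.15 (0.170) and -0.97 (0.000542).

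The INK4 genes had the widest ranges of the members on the log2 scale. Cdkn2a was at 110.3, 118, 138, 105, 33.8 and 39.6 CPM in knockout 1 to 6 and at 68.1, 72.4, 63.1, 62.1, 71.6 and 122 CPM in control 1 to 6. Cdkn2b, its neighbour on mouse chromosome 4, was at 60.3, 60.4, 71.3, 58.3, 15.8 and 17.2 CPM in knockout 1 to 6 and at 44.7, 43.0, 42.8, 42.8, 45.9 and 55.3 CPM in control 1 to 6. Both genes were highest in knockout 3, lowest in knockout 5, and higher in control 6 than in the other controls. Knockout 5 and 6 were also the libraries with the highest shares of Rn45s and levels of Mki67, whose part in this was not tested. Over 12 libraries the log2 difference was 0.25 (95% interval -0.39 to 0.89; edgeR adjusted p = 0.569) for Cdkn2a and 0.04 (-0.61 to 0.69; 0.931) for Cdkn2b. Without knockout 5 and 6 these were 0.62 (edgeR adjusted p = 0.0137) and 0.45 (0.00169), and without knockout 1 to 4 they were -1.06 (0.00838) and -1.47 (1.84e-05). The adjusted p ran from 9.26e-08 to 0.880 for Cdkn2a and from 1.37e-06 to 0.969 for Cdkn2b over all alternatives.

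**Figure D2:**
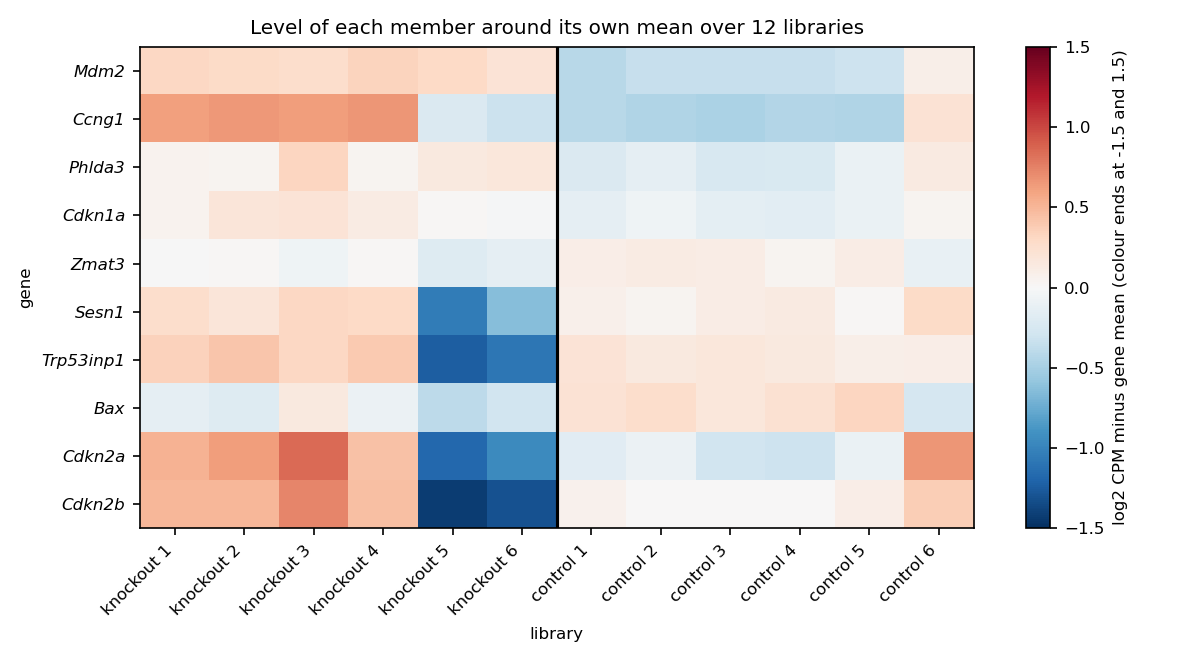
Log2 CPM of each member minus its own mean over the 12 libraries, with knockout libraries left of the line and controls right of it. Cdkn2a, Cdkn2b, Trp53inp1 and Sesn1 are low in knockout 5 and 6, whereas Mdm2 and Phlda3 there are at or above their means.

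The 2 parts of the knockout group therefore gave different counts of members. Knockout 1 to 4 against all 6 controls gave 7 members higher and 0 lower. There 52.0% of all tested genes were called (3055 of 12471 higher, 3433 lower). Without control 6 as well, 7 were higher and 2 (Bax and Zmat3) lower, with 71.3% of all genes called (4319 of 12382 higher, 4508 lower). Knockout 5 and 6 against all 6 controls gave 2 higher (Mdm2 and Phlda3) and 6 lower. In that comparison 61.1% of all genes were called (3843 of 12764 higher, 3953 lower). In these fits the sets and the genotype cannot be told apart, and the first 2 share the knockout libraries and the last shares its controls with the first. Mdm2 and Phlda3 were higher, with an adjusted p under 0.05, in each of the 3 fits and in the comparison of all 12 libraries.

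**Figure D3:**
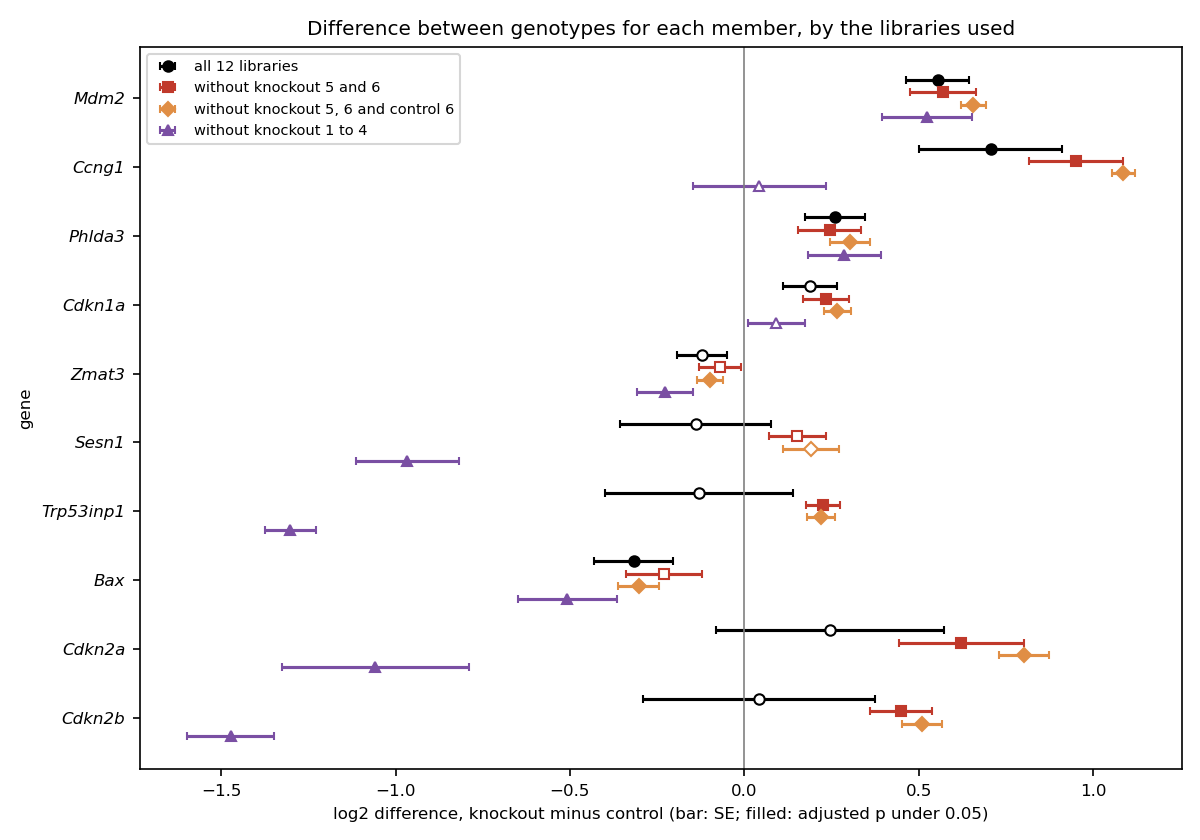
Log2 difference (knockout minus control) of each member with its SE from edgeR, with all 12 libraries and with 3 sets of libraries left out; filled symbols have an adjusted p under 0.05. Mdm2 stays between 0.52 and 0.66 in the 4 fits, and Cdkn2b ranges from -1.47 to 0.51.

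Transcript levels of p53 itself did not pass the test. Trp53 was at 87.7, 86.7, 93.0, 83.7, 135 and 141 CPM in knockout 1 to 6 and at 120.2, 121, 117, 113, 114 and 83.6 CPM in control 1 to 6 (log2 difference -0.09, SE 0.15; edgeR adjusted p = 0.659). Knockout 5 and 6 were the highest of the 12 libraries for Trp53 and the lowest for Cdkn2a. Without knockout 5 and 6 the difference was -0.34 (edgeR adjusted p = 0.0125), and without knockout 1 to 4 it was 0.31 (0.0676). The adjusted p was 4.02e-07 to 0.893 over all alternatives. Of 11 tested genes among p53 and its upstream regulators, 3 rose, 2 fell and 6 did not pass (median log2 difference 0.08). That is 45.5% called, close to the 43.0% of all tested genes. Usp7, a deubiquitinase of p53 and MDM2, rose to 127 CPM in the knockout, against 96.3 CPM in the control. It was at 156 and 158 CPM in knockout 5 and 6 and at 103 to 119 CPM in the other 4, against 91.7 to 103 CPM in controls. Its log2 difference of 0.40 was 0.23 without knockout 5 and 6. The checkpoint kinase gene Chek1 averaged 10.9 CPM in the knockout against 4.63 CPM in the control, with 21.2 and 17.4 CPM in knockout 5 and 6, and Chek2 averaged 9.43 against 14.0 CPM.

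Other p53 target genes moved in both directions. Of 23 tested, 7 rose, 8 fell and 8 did not pass, with a median log2 difference of -0.03. The share called was 65.2%, against 43.0% of all tested genes (21.4% higher, 21.6% lower). Gadd45a, a stress gene that acts in DNA repair and arrest, had the widest fall, to 15.5 to 37.0 CPM in the knockout libraries, against 184 to 209 CPM in control 1 to 5 and 35.4 CPM in control 6 (log2 difference -2.67, SE 0.36; edgeR adjusted p = 0.000138). Without control 6 and knockout 5 and 6 this difference was -2.67. Sesn2, a sestrin that is also induced by amino acid stress, fell to 39.1 to 65.3 CPM, against 75.3 to 122 CPM in controls (-1.07, SE 0.15). Mdm4, the partner of MDM2 that holds p53 inactive, fell to 48.8 to 75.7 CPM, against 75.8 to 102 CPM in controls (-0.57, SE 0.13; edgeR adjusted p = 0.00357), opposite to Mdm2. Polk, a translesion DNA polymerase, rose to 49.8 to 54.0 CPM, against 27.7 to 40.3 CPM in controls (0.64, SE 0.09; edgeR adjusted p = 0.000142).

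**Figure D4:**
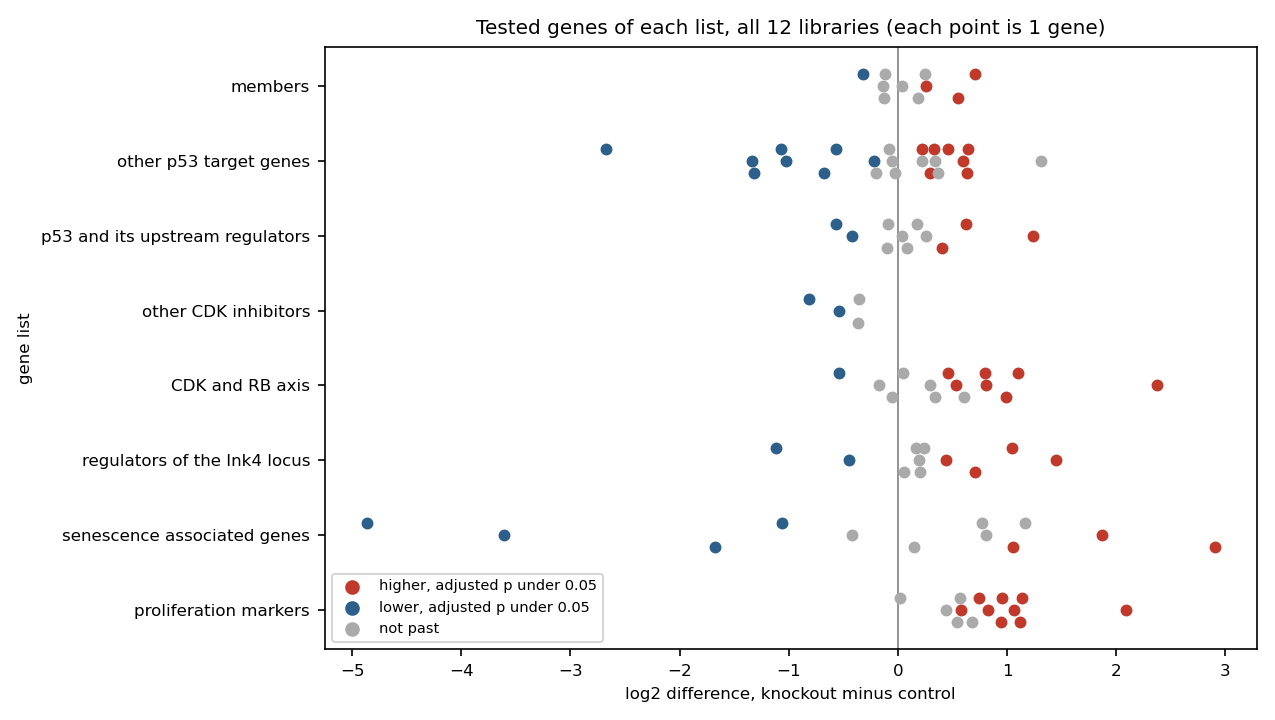
Log2 difference (knockout minus control, all 12 libraries) of every tested gene of the members and of 7 related lists, coloured by call; each point is 1 gene. The members lie between -0.32 and 0.71, and proliferation markers lie between 0.02 and 2.09.

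Among the other CDK inhibitors 0 of 4 rose, 2 fell and 2 did not pass. With 50% of 4 genes called, the list was near the 43.0% of all tested genes. Cdkn2c, encoding p18INK4c, was at 10.6 to 13.2 CPM in knockout libraries and at 16.2 to 18.8 CPM in controls (log2 difference -0.54, SE 0.08; edgeR adjusted p = 0.000309). Unlike for Cdkn2a and Cdkn2b, knockout 5 and 6 lay inside the range of the other knockouts. Cdkn1b, encoding p27, had 13.6 and 16.1 CPM in knockout 5 and 6 and 26.4 to 26.9 CPM in the other 4, against 41.0 to 45.4 CPM in control 1 to 5 and 23.0 CPM in control 6 (-0.82, SE 0.21; edgeR adjusted p = 0.00694).

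Genes of the kinases and RB proteins on which these inhibitors act gave 7 higher, 1 lower and 6 not past of 14, with a median log2 difference of 0.49. The share called was 57.1%, against 43.0% of all tested genes. Cyclin E2 (Ccne2) averaged 23.9 CPM in the knockout against 4.60 CPM in the control, with 52.6 and 44.6 CPM in knockout 5 and 6 and 10.9 to 12.6 CPM in the other 4. Cdk6, a kinase bound by the INK4 proteins, rose to 8.88 CPM, against 5.07 CPM in the control, and the transcription factor gene E2f3 to 48.9 CPM, against 35.6 CPM. For Cdk6 the groups overlapped, with 7.19 CPM in control 6 and 7.12 CPM in knockout 3. Rb1 was not past the test (edgeR adjusted p = 0.258): it had 9.86 and 8.38 CPM in knockout 5 and 6 and 19.1 to 25.5 CPM in the other 4, against 11.3 to 15.6 CPM in controls.

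Regulators of the INK4 locus gave 4 higher, 2 lower and 5 not past of 11. The share called was 54.5%, against 43.0% of all tested genes. The number called was 4 of 11 without knockout 5 and 6, where 52.0% of all tested genes were called. Ezh2, the methyltransferase of Polycomb complex PRC2, had 75.7 and 75.02 CPM in knockout 5 and 6 and 19.6 to 21.04 CPM in the other 4, against 12.9 to 15.7 CPM in controls (edgeR adjusted p = 0.00846). Knockout 5 and 6 had the most Ezh2 and the least Cdkn2a and Cdkn2b. Knockout 1 to 4 had more Ezh2 than the controls and more of both INK4 genes than control 1 to 5. Whether Ezh2 has a part in these levels was not tested. Cbx7, a Polycomb reader of PRC1, fell to 0.633 to 2.08 CPM, against 3.05 to 4.32 CPM in controls. The INK4 and ARF repressor gene Tbx3 rose to 28.8 CPM, against 17.7 CPM, and Twist1 fell to 34.0 CPM, against 46.2 CPM. For Tbx3 and Twist1 control 6 was inside the range of the knockout libraries, at 27.0 and 36.1 CPM.

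Of 14 proliferation markers 9 were higher and 5 did not pass the test, 0 being lower, with a median log2 difference of 0.78. The share called was 64.3%, against 43.0% of all tested genes (21.4% higher). Leaving out knockout 5 and 6 left 6 of the 14 called, in a fit where 52.0% of all tested genes were called. Mki67, the Ki-67 antigen of dividing cells, had 129 and 141 CPM in knockout 5 and 6 and 42.4 to 64.5 CPM in the other 4, against 39.6 to 54.2 CPM in controls. Its difference of 0.83 (edgeR adjusted p = 0.0213) was 0.31 without knockout 5 and 6 (0.0654; 1.03e-05 to 0.613 over all alternatives). Rrm2, a ribonucleotide reductase subunit, had 235 and 243 CPM in knockout 5 and 6 and 84.8 to 95.1 CPM in the other 4, against 27.7 to 46.7 CPM in controls. The mitotic checkpoint gene Bub1 and cyclin A2 (Ccna2) averaged 19.1 and 48.4 CPM in the knockout, against 9.95 and 22.3 CPM in the control. Knockout 5 and 6 were the highest for both, and without them the log2 difference was 0.62 for Bub1 and 0.49 for Ccna2, against 0.95 and 1.12 with all 12 libraries.

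Genes associated with senescence went both ways, with 3 of 12 tested higher, 4 lower and 5 not past, and a median log2 difference of 0.46. The share called was 58.3%, against 43.0% of all tested genes. Igfbp3, an insulin-like growth factor binding protein, had 47.3 and 49.6 CPM in knockout 5 and 6 and 10.04 to 12.5 CPM in the other 4, against 800.3 to 855 CPM in control 1 to 5 and 66.1 CPM in control 6 (log2 difference -4.86, SE 0.67). The secreted protease Mmp3 fell to 6.03 CPM, against 74.7 CPM in the control, and the chemokine Ccl2 to 14.5 CPM, against 46.0 CPM. Lmnb1, lamin B1, which is lost in senescent cells, had 87.98 and 87.6 CPM in knockout 5 and 6 and 26.05 to 30.4 CPM in the other 4, against 19.0 to 25.8 CPM in controls. It rose in the knockout (edgeR adjusted p = 0.0209).

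Profiles like those of Cdkn1a and Cdkn2a over the 12 libraries were found by the root mean square distance of log2 CPM, each gene centred on its own mean, among 10271 tested genes. For Cdkn1a, whose own range was 0.36, the closest were Anxa2 (distance 0.05), Rab7, Cdc16 and Vapb. For Cdkn2a, whose range was 2.03, they were Cd81 (0.10), Dap, Sparc and Aplp2 (0.13). Cd81 had 189 and 199.7 CPM in knockout 5 and 6 and 649 to 751 CPM in the other 4, against 357 to 378 CPM in control 1 to 5 and 768 CPM in control 6. These distances describe libraries that fall into few sets and carry no test.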

How the data were processed

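RNA of cultured colonic myofibroblasts was sequenced in 12 libraries after oligo-dT selection and strand-marked (dUTP) preparation, per the labels' protocols. The authors deposited expected counts per gene symbol; the submitters' processing notes name RSEM 1.2.15, Bowtie2 2.1.0 and the human build hg38, although the symbols are mouse, so no gene coordinates are given from the counts. No annotation or strand setting is given in the sources used here; RefSeq places another gene over part of Cdkn2b (Gm12610) and of Zmat3 (4930429B21Rik), whose levels are uncertain for that reason. Decimals were present in 2.67% to 3.48% of the values and in 0 of the 120 values of the members (further than 0.001 from a whole number); all were rounded. Groups come from sample titles.

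Genes were filtered with filterByExpr (minimum count 10, minimum total 15; 12146 of 24411 kept), scaled by TMM and tested with edgeR 4.0.16 (R 4.3.3, quasi-likelihood, genotype as the only term), with Benjamini-Hochberg adjustment over all tested genes and a threshold of 0.05. CPM uses scaled library sizes; log2 CPM for profiles has a prior count of 2. SE is the log2 difference divided by the root of F, and 95% intervals are 1.96 SE. CPM is not per length, so levels of different genes were not compared. DESeq2 1.42.0 and limma 3.58.1 served as alternatives. The steps were tested on counts simulated as if the 12 libraries were independent. That test does not cover libraries that fall into sets.

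The members and lists were chosen with earlier results of these data known. Named genes are the members, Tnfrsf1a, up to 3 called genes of each list with the smallest adjusted p, Trp53, Mdm4, Cdkn1b, Cdkn2c, Rb1 and Mki67, and the 4 closest profiles to Cdkn1a and Cdkn2a (mean log2 CPM of at least 2, predicted genes passed over). Ezh2, Lmnb1, Rn45s and the cell type markers printed were picked with their values in view. The fits on summed sets and without knockout 1 to 4 were added after earlier results of these data were known. Promoter windows are RefSeq's for GRCm38.p6.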

Additional observations from a re-analysis of the deposited data

Results flagged for a closer look

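In groups of 6, the gap of the highest or lowest library to its nearest neighbour, as a share of the whole range, passed the 95% critical value of Dixon's test in 24 of 86 groups of named genes, 23 of them because of control 6 and 6 of them among the 20 groups of members. Chance flags about 1 in 20 unselected groups. That rate cannot be applied here, because the groups share the same libraries and many of the named genes were picked for their values. Cd81, Dap, Sparc and Aplp2 were picked for profiles like that of Cdkn2a, and Anxa2, Rab7, Cdc16 and Vapb for profiles like that of Cdkn1a.

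Control 6 was the highest control for Cdkn2a (122 CPM, others 62.1 to 72.4), Cdkn2b (55.3 CPM, others 42.8 to 45.9), Mdm2 (214 CPM, others 151 to 162), Ccng1 (675 CPM, others 417 to 438) and Phlda3 (187 CPM, others 144 to 159). It was the lowest for Bax (129 CPM, others 173 to 192).

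Among the other named genes control 6 was the lowest control for Tnfrsf1a (54.9 CPM), Gadd45a (35.4 CPM), Sesn2 (75.3 CPM), Chek2 (8.78 CPM), Cdkn1b (23.0 CPM), Mmp3 (46.3 CPM), Igfbp3 (66.1 CPM) and Trp53 (83.6 CPM). It was the highest for E2f3 (41.8 CPM), Tbx3 (27.0 CPM), Rrm2 (46.7 CPM), Anxa2 (1265 CPM), Vapb (198 CPM), Cd81 (768 CPM), Dap (188 CPM), Sparc (7479 CPM) and Aplp2 (444 CPM). In the knockout group only Chek2 was flagged, at 6.43 CPM in knockout 5 against 9.62 to 10.7 CPM in the other 5 libraries. This gap is small where 2 libraries lie apart together, so it could not flag the split of knockout 5 and 6 from knockout 1 to 4. For Cdkn2a these were at 33.8 and 39.6 CPM against 105 to 138 CPM. The few flags therefore do not show the knockout group to be uniform. Over all genes control 6 was closer to knockout 1 to 4 (Spearman correlation 0.968 to 0.976) than to control 1 to 5 (0.952 to 0.954). Why control 6 differs was not tested.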

How the results depend on the processing

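Of the members, 3 were higher and 1 lower with all 12 libraries. Leaving out one library at a time gave 2 to 4 higher and 0 to 1 lower. The higher count was 1 with the replicate block, 7 without knockout 5 and 6 and 7 without control 6 as well. The lower count was 0 with the block, 0 without knockout 5 and 6, 2 without control 6 as well and 6 without knockout 1 to 4. On the 4 summed sets 0 genes of any list were called, by edgeR or limma-voom. Called genes numbered 8 in place of 5 for p53 and its regulators and 4 in place of 2 for other CDK inhibitors without knockout 5, 6 and control 6. They numbered 10 in place of 6 for regulators of the INK4 locus and 14 in place of 9 for proliferation markers without knockout 1 to 4 (4 with the block), and 12 in place of 7 for senescence genes in both fits. In the same fits the share of all tested genes called was 71.3% and 61.1%, in place of 43.0%. With one library left out they were 5 to 10 for the CDK and RB genes (8 with all), 10 to 15 for other p53 targets, 5 to 6 for p53 regulators, 2 to 3 for other CDK inhibitors, 4 to 7 for INK4 regulators, 7 to 9 for senescence genes and 7 to 11 for proliferation markers. A log2 difference was taken as reversed where its sign changed and either of the 2 fits passed the threshold. Without knockout 1 to 4 this held for Cdkn2a (-1.06), Cdkn2b (-1.47), Rb1 (-0.57), Cd81 (-1.16), Dap (-1.07), Sparc (-1.12) and Aplp2 (-1.07). It held without knockout 5 and 6 for Trp53inp1 (0.23, and 0.22 without control 6 as well). Signs also changed with neither fit past the threshold, as for Sesn1 (0.15 without knockout 5 and 6) and Trp53 (0.31 without knockout 1 to 4). The cause was not tested. Cdkn2b, at 0.04 and not past the test, was also below 0 with library totals as the only scaling (-0.03), limma-voom (-0.21), the replicate block (-0.15), without any one of knockout 1 to 4 (-0.11 to -0.03) and on summed sets (-0.33 in edgeR, -0.55 in limma-voom), where Cdkn2a was at -0.30 and -0.50. Replicate numbers did not pair the libraries: deviations of same-numbered libraries correlated at -0.36 to 0.18, 0 of 6 correlated best with their own number, and the block called 3974 genes in place of 5219. Depth differed with genotype and no fit at matched depth was run; Sesn1 had the fewest counts of the members, with 40 and 54 in knockout 5 and 6.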
